A study of Drosophila melanogaster with 2 samples.

Results

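Of the 6148 peaks of the optimal set on the main chromosome arms, 1284 (20.9%, 95% exact binomial interval 19.9 to 21.9) had their summit between or beside the starts of a divergent pair of protein-coding genes. They were chosen by position alone: the minus-strand gene's transcription start site (TSS) lies below the plus-strand gene's TSS, the starts are at most 1000 bp apart, and the summit lies within 500 bp of each. These peaks made up 36.9% of the 3481 peaks with a summit within 500 bp of any protein-coding TSS. The data are chromatin immunoprecipitation and sequencing (ChIP-seq) of CG3847 in whole Drosophila melanogaster embryos aged 0 to 24 h. The flies carried a transgene for CG3847 fused to eGFP, an antibody against GFP pulled the fusion protein down, and sonication gave fragments of 200 to 800 bp. There is 1 group with 2 biological replicates, each a mix of embryonic stages and tissues, and the labels do not say what drives the transgene. No control library was used here, so signal that depends on CG3847 and signal that does not cannot be told apart, and the files give no read depth. No condition was compared, so the values below are descriptions without tests, and intervals cover the counting of peaks, pairs or windows only.

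Divergent genes lie head to head on opposite strands and share the DNA between their starts, so a factor bound there sits upstream of both. Compact genomes hold many such pairs, and in Drosophila they often join genes that most cells use, such as those for ribosomal proteins, RNA processing and mitochondria. Promoters of such genes often carry the DNA replication-related element (DRE), Motif 1 or Motif 7, while developmental genes more often use a TATA box, an initiator or GAGA repeats. The DRE is bound by the factor Dref, its CGATA part also by the insulator protein BEAF-32, and Motif 1 by M1BP.

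The DNA between the starts is shown for 6 strong peaks, so that the distance of the summit from each gene and the letters beneath it can be read directly. They are the strongest peaks outside the right arm of the second chromosome with starts 60 to 250 bp apart, the summit between them and no annotated exon in the interval. Each run is the plus strand of the Release 6 genome (dm6) from RefSeq, 5′ to 3′, from the base after the left gene's start to the base before the right gene's start. Capitals mark any of these on either strand: the DRE (TATCGATA), the cores of Motif 1 (GGTCACAC) and Motif 7 (CATCNCTA), and 4 short words picked after the values were seen. These words are CTACGCC, the shorter word AACCCC, then CTGGCAAC, and lastly GGCAACGC, which overlaps the word before it.
Tcs5/CHMP2B, chr3L:5139396-5139618: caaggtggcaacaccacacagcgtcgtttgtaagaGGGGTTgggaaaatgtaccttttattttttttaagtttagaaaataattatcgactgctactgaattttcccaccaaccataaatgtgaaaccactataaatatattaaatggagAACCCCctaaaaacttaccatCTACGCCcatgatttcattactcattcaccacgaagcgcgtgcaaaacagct
CG7601/CIA30, chr3R:29736746-29736964: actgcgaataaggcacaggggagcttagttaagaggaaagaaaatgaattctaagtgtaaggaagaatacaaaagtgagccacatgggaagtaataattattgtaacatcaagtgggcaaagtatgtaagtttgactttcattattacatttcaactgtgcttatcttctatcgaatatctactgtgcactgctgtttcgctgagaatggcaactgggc
CG13390/CG17294, chr2L:8376798-8377034: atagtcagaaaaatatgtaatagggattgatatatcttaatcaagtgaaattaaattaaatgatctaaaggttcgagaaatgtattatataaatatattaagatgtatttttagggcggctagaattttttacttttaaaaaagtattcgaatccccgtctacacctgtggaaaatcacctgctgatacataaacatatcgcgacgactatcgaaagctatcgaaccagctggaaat
Mnat9/CG1792, chr3R:31616161-31616302: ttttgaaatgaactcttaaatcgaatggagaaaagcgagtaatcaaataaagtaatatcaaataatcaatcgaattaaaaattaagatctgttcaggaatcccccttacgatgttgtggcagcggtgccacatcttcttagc
CG3437/CG3552, chr3L:9457670-9457911: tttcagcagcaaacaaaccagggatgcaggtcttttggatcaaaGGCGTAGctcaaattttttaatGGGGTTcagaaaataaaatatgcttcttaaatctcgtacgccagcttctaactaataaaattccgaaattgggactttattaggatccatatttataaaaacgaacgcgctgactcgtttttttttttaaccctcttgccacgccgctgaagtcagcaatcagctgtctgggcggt
fws/Lamtor3, chr2L:17481030-17481230: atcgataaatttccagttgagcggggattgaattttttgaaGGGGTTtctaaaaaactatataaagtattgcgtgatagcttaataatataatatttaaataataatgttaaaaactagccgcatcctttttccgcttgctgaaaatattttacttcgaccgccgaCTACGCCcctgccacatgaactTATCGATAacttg

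In these 6 runs the summit lay at base 94 for Tcs5/CHMP2B, base 89 for CG7601/CIA30, base 89 for CG13390/CG17294, base 21 for Mnat9/CG1792, base 134 for CG3437/CG3552 and base 106 for fws/Lamtor3. The signals of these peaks were 2281, 1707, 1683, 1128, 1058 and 1021 in that order. Only fws/Lamtor3 held a DRE among these 6, and none of them held the Motif 1 or Motif 7 core. The word AACCCC, on either strand, was found together with the word CTACGCC in Tcs5/CHMP2B, CG3437/CG3552 and fws/Lamtor3. Both words were picked after the values were seen, so no trait of strong peaks is read from this. Their shares over all peaks are given further on.

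For contrast, the strongest peaks under the same limits with a Motif 1 core and with a Motif 7 core are shown next, CG42340/CG3918 with a signal of 427 and alien/CG18661 with 793. This pair of examples was chosen after the motif counts were seen. Their summits were at base 91 and at base 134.
CG42340/CG3918, chrX:6524324-6524463: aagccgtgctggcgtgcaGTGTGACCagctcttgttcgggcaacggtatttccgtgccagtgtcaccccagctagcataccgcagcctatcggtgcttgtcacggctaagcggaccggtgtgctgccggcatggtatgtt
alien/CG18661, chr2L:8997380-8997604: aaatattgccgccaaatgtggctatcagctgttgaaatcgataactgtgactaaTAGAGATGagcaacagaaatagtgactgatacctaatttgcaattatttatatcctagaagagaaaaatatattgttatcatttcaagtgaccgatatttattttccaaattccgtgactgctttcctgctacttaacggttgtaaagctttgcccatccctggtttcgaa

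The last 2 runs come from pairs with no ranked peak in reach of both starts, ND-49/Ephrin and Nprl2/Polr3I, taken alphabetically from the gene lists. Nprl2/Polr3I carries a Motif 1 core and ND-49/Ephrin carries none of the marked words. A Motif 1 core thus stood in an interval with a peak and in one without.
ND-49/Ephrin, chr4:571555-571754: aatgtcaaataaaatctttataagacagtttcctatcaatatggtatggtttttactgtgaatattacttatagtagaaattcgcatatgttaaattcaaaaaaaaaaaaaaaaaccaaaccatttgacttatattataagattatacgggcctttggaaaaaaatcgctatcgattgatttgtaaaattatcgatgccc
Nprl2/Polr3I, chrX:16884366-16884580: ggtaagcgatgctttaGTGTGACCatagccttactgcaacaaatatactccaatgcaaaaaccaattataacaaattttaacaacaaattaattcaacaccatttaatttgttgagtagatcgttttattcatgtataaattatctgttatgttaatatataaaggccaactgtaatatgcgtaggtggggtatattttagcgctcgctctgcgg

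Most head-to-head pairs with starts up to about 500 bp apart held a peak. The annotation holds 2667 head-to-head pairs with starts up to 1000 bp apart among 13968 protein-coding genes with 19630 start positions, and 1276 pairs (47.8%, interval 45.9 to 49.8) had a peak in reach of both starts. Of the other pairs, 24 had only a ranked peak past the reproducibility threshold that the optimal set did not hold, 594 had only weaker ranked peaks, with a median best signal of 40.6, and 773 (29.0%) had none. A summit within 500 bp of any start of either gene was present at 1599 pairs (59.96%). Genes in pairs had a summit within 500 bp of a start in 2756 of 5052 cases (54.6%), against 1574 of 8916 (17.7%) for genes outside pairs and 31% of all protein-coding genes. A pair gene's own start and its partner's start share one interval, so a single peak counts for both genes there.

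The share of pairs with a peak varied with the spacing of the starts. It was 59.0% of 429 pairs at 1 to 100 bp, 50.98% of 357 pairs at 101 to 200 bp, 64.6% of 542 pairs at 201 to 300 bp and 63.3% of 400 pairs at 301 to 400 bp. It was 53.6% at 401 to 500 bp, 38.5% at 501 to 600 bp and 7.14% at 601 to 700 bp. Beyond 500 bp the rule leaves ever less room for a summit in reach of both starts, so that decline is partly set by the rule. Counting a summit near either gene, the share was 60.6% at 501 to 600 bp and 45.2% at 901 to 1000 bp. The interval for the pairs at 101 to 200 bp (45.7 to 56.3%) did not overlap that for the pairs at 201 to 300 bp (60.4 to 68.6%). The median spacing was 260 bp for pairs with a peak, 616 bp for pairs with no ranked peak and 301 bp for all pairs.

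**Figure D1:**
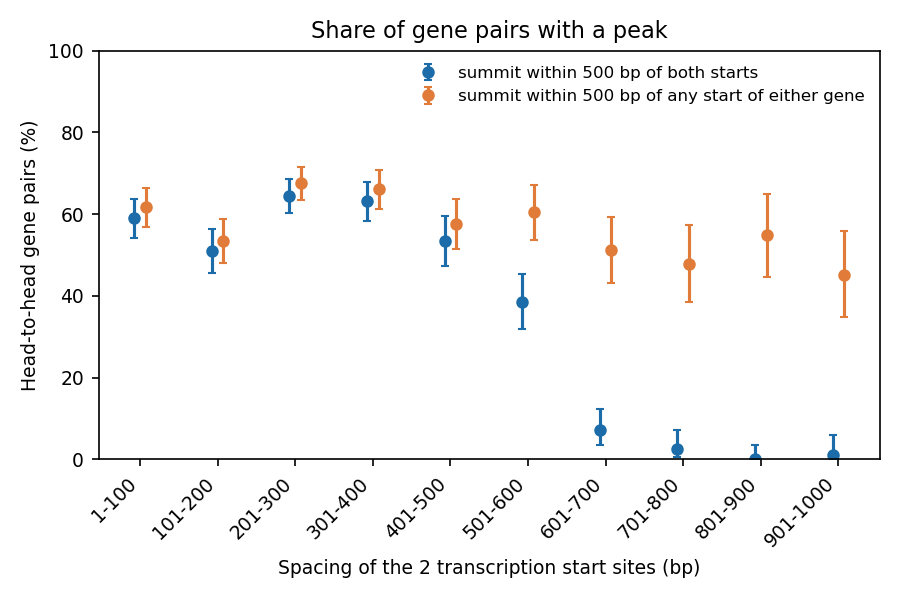
Share of head-to-head protein-coding gene pairs (y axis, %) with a summit within 500 bp of both starts (blue) and with a summit within 500 bp of any start of either gene (orange), by the spacing of the starts (x axis, bp). Bars are 95% exact binomial intervals, and both shares were highest at 201 to 300 bp (64.6% and 67.5%), and the blue share was 7.14% or lower beyond 600 bp.

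The summit lay between the starts in 1014 of the 1284 peaks (79.0%, interval 76.6 to 81.2). At spacings above 500 bp the rule itself requires this (104 of 104 peaks), and at spacings up to 500 bp the share was 77.1%. The summit lay outside every annotated gene in 884 peaks (68.8%), in an exon in 301 (23.4%) and in coding sequence in 9 (0.701%). The nearer start was a median of 56 bp downstream of the summit (quartiles 11 to 102 bp) and the farther start 197.5 bp. The minus-strand start was nearer in 590 peaks (46.0%) and the plus-strand start in 692 (53.9%), or 581 and 613 without the secondary peaks described further on. At single-gene promoters, the 2197 peaks near a protein-coding start but not in reach of both starts of a pair, the nearest start was a median of 70 bp downstream of the summit (quartiles 16 to 174 bp), and 80.6% of summits were upstream of it.

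The summit did not simply follow the midpoint. At pairs 51 to 100 bp apart the nearer start was a median of 8 bp and the farther 72 bp downstream, and at pairs 201 to 250 bp apart these were 74 and 153 bp. Up to 500 bp of spacing the nearer distance then changed little, with medians of 84 bp at 251 to 300 bp, 85 bp at 301 to 400 bp and 76 bp at 401 to 500 bp, while the farther distance reached 373.5 bp. Summits were a median of 91 bp off the midpoint at 301 to 400 bp and 149.5 bp at 401 to 500 bp. At 601 to 700 bp the nearer and farther medians were 209 and 421 bp (14 peaks), and at 701 to 800 bp the 3 summits were a median of 30.5 bp off the midpoint, since a summit within 500 bp of both starts of a wide pair must lie near its middle. At pairs 1 to 50 bp apart, only 18 of 84 summits (21.4%) lay between the starts, and the median summit was 53 bp inside the transcribed part of the nearer gene. The median signal by spacing was highest at 201 to 250 bp, 242 (quartiles 125 to 359), against 184 at 1 to 50 bp and 143 beyond 500 bp, with quartiles that overlapped.

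**Figure D2:**
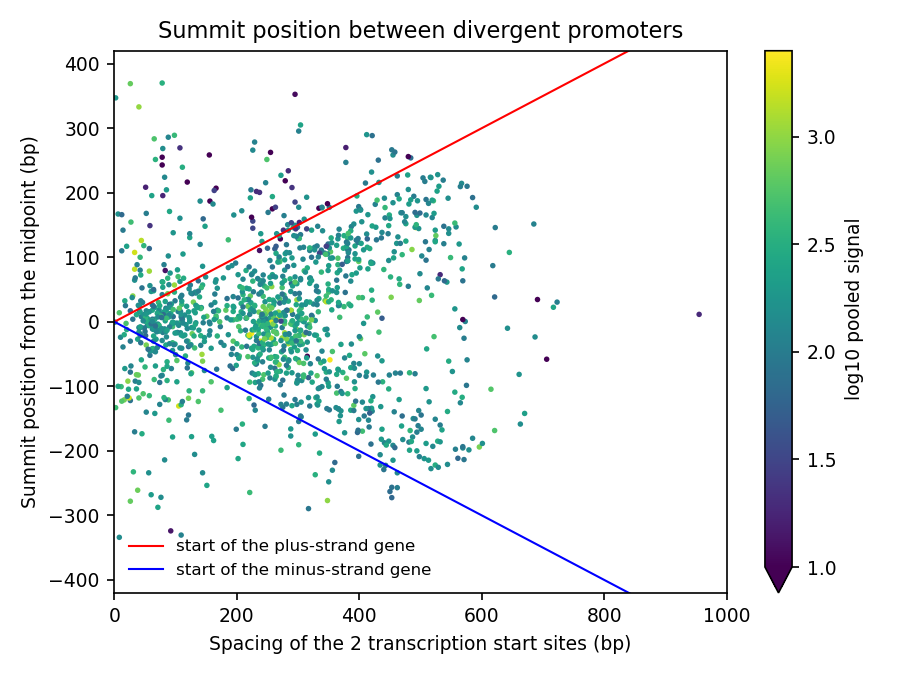
Position of each of the 1284 summits from the midpoint of its pair (y axis, bp, positive towards the plus-strand gene) against the spacing of the starts (x axis, bp), coloured by log10 pooled signal. The lines mark the starts; 79.0% of points lie between them, and between 400 and 600 bp of spacing most points lie off the midpoint, while wider pairs have few points.

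The stronger peaks had their summits farther from the nearer start and closer to the farther one, with medians of 84 and 164 bp in signal quintile 5 and 29 and 270 bp in quintile 1. Of the 257 peaks in signal quintile 5 (the strongest), 152 (59.1%, interval 52.9 to 65.2) had at least 1 start 80 to 150 bp downstream of the summit, against 77 of 257 (29.96%, 24.43 to 35.96) in quintile 1, with 36.6%, 41.8% and 46.3% in quintiles 2 to 4. Both starts lay in that range for 52 peaks in quintile 5 and for 10 in quintile 1. The range was chosen after the distances were seen. Single-gene promoter peaks, for which only the nearest start was counted, moved the same way, with 22.0% of 440 in quintile 5 and 8.86% of 440 in quintile 1. Their median distance was 128.5 bp in quintile 5 and 26 bp in quintile 1. Between divergent promoters either start counted, so the levels are not the same measure. Quintile 1 holds 61 secondary peaks beside stronger ones, and without them its share was 70 of 196 (35.7%).

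The peak with the highest signal lay between CG5611 and Mtl, a Rac-like small GTPase gene, at chr3R:27635971-27636509. Its signal was 2356 pooled, 1299 in replicate 1 and 1039 in replicate 2, with the summit 117 bp upstream of CG5611 and 235 bp upstream of Mtl. Next was Tcs5/CHMP2B, shown above, with a pooled signal of 2281 and 1226 and 1063 in replicates 1 and 2. Tcs5 acts in tRNA modification and CHMP2B is a subunit of the endosomal sorting machinery. The peak between Art3, an arginine methyltransferase gene, and mRpS10, a mitochondrial ribosomal protein gene, had 2099 pooled, 1199 in replicate 1 and 894 in replicate 2. Its summit was nearly central, 128 bp from Art3 and 129 bp from mRpS10. The peak between Atat, which encodes a tubulin acetyltransferase, and Shc, an adaptor of receptor tyrosine kinases, was placed alike, 129 bp from Atat and 123 bp from Shc, with 1939 pooled, 1013 in replicate 1 and 932 in replicate 2.

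Some of the strongest peaks lay beside the pair rather than inside it. At Chro/Ssl1, the pair of an interband chromatin protein and a TFIIH subunit, the starts are 105 bp apart and the summit was 78 bp inside Chro and 183 bp upstream of Ssl1, with a signal of 1721. At Pex11ab/CG8320, where Pex11ab acts in peroxisome division, the starts are 33 bp apart and the summit was 124 bp upstream of Pex11ab and 91 bp inside CG8320, with 1691. At mRpL23/CG9004 the starts are 24 bp apart and the summit was 106 bp inside the mitochondrial ribosomal gene mRpL23, with 1667. The position inside a gene rests on the annotated start: 14 of the 20 strongest peaks had the summit between the starts.

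The other 13 of these 20 pairs had signals of 1118 to 1793. They included mRpS23/CenG1A (1793), a mitochondrial ribosomal protein gene and an Arf GTPase-activating protein gene, and CG7601/CIA30 (1707), where CIA30 helps to assemble respiratory complex I. They also included brm/Arl1 (1506), the ATPase of the Brahma remodelling complex and a Golgi GTPase, CG1275/Elp5 (1449), with a subunit of Elongator, and Lon/PIG-F (1278), a mitochondrial protease and a step of GPI anchor synthesis. Mppe/pds5 (1160) joins a phosphoesterase to a cohesin regulator, and Mkk4/SLIRP2 (1143) a kinase of stress signalling to an RNA-binding protein. CG13390/CG17294, Fbw5/CG9147, Pdrg1/Pal1, DUBAI/Tmem18, Mnat9/CG1792 and CG8372/CG8360 completed the group. All 20 had a higher signal in replicate 1 than in replicate 2, by log2 ratios from 0.02 at Mppe/pds5 to 0.70 at mRpS23/CenG1A.

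Across all 1284 peaks the median signal was 177 (quartiles 115 to 298), against 142 (95.2 to 236) for single-gene promoter peaks and 110 (80.7 to 177) for the 2667 peaks away from protein-coding starts. The highest single values were elsewhere: 3804 at a single-gene promoter and 4117 away from starts, against 2356 between divergent promoters. A signal of 500 or more was reached by 115 peaks between divergent promoters and 1000 or more by 26. Among all 6148 optimal peaks, SCCRO3/Sans with a signal of 499.97 had rank 346 and fws/Lamtor3 with 1021 had rank 79. These ranks show about how many peaks of any kind lie above each cut. By chromosome, the median was 143 on X, 179 on 2R, 183 on 3L, 192 on 3R and 195 on 2L. Pairs held a peak in 53.1% of cases on 3R, 51.2% on 3L, 46.7% on X, 43.8% on 2L and 43.6% on 2R. On chromosome 4 none of 11 pairs held a peak, which allows a share of up to 28.5% by the exact interval.

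The weak end of the range consisted largely of secondary peaks. Of the 48 peaks with a signal under 50, 47 overlapped a stronger peak of the same set. In all, 88 of the 1284 (6.85%) did so, with a median signal of 33.1, against 191 for the other 1196. In 85 of the 88 the stronger peak lay at the lower coordinate. The 3 weakest were Tim10/Ppcdc (2.31), CG4199/Rtca (3.17) and CG10214/CG10375 (3.52), beside overlapping peaks of 127, 196 and 267. Tim10 encodes a chaperone of mitochondrial import. Their replicate values, 57.6 to 146, belong to the highest overlapping peak and so may be those of the neighbour. The same holds for the most widely spaced pair with a peak, Ank2/Mcad (955 bp, signal 18.8), which overlapped a peak of 604. The most closely spaced was Atg6/Pisd, with starts 1 bp apart, where the autophagy gene Atg6 had its start at the summit and the signal was 161.

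The replicates gave most of these peaks separately. The optimal set was itself made with a threshold on reproducibility between replicates, so such overlaps are partly set by that choice. Of the 1284 peaks, 996 (77.6%) overlapped a peak of the replicate 1 set, where 67.9% of all optimal peaks did, and 1119 (87.1%) overlapped one of the replicate 2 set, where 67.4% did. Both sets were overlapped by 926 (72.1%, interval 69.6 to 74.6), against 58.6% of single-gene promoter peaks and 43.9% of peaks away from starts, and neither set by 95. The conservative set overlapped 1210 (94.2%), against 87.5% of all optimal peaks. Stronger peaks overlap more often: both replicate sets were overlapped by 21.0% of quintile 1, 51.8% of quintile 2, 90.2% of quintile 3, 97.7% of quintile 4 and 100% of quintile 5. At single-gene promoters, split into quintiles of their own, these shares were 10.5%, 18.9%, 68.3%, 96.4% and 99.1% in the same order.

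Signals in the replicates were ranked alike, which the reproducibility threshold of the optimal set favours, so this agreement is not a separate check. Over 1276 peaks with a ranked peak in both, Spearman's rho was 0.870 and Pearson's r of the log signals was 0.887, as a description across peaks of the same libraries, and rho was 0.871 without the secondary peaks. The log2 ratio of replicate 1 to replicate 2 had a median of −0.01 and an SD of 0.47 across peaks, and 49.3% of the peaks were higher in replicate 1. Peaks away from protein-coding starts had a median ratio of 0.35 and were higher in replicate 1 in 77.3% of cases, and single-gene promoter peaks had 0.06 and 55.6%. Each replicate's signals come from its own table, so these ratios also hold any difference in scale between libraries. The summits of the replicates were a median of 18 bp apart (75th percentile 39 bp) over the 926 peaks in both sets.

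The largest replicate differences among these 926 peaks were moderate. CG32486/PAN3 had 56.0 in replicate 1 and 142 in replicate 2 (log2 ratio −1.34), cnn/Golgin97 had 84.0 and 197 (−1.23) and Ufd1/NaPi-III had 78.7 and 183 (−1.22). In the other direction, Daao1/CG7220 had 222 in replicate 1 and 85.8 in replicate 2 (1.37), ND-MNLL/p115 had 111 and 47.9 (1.21) and CG8152/Xpc had 87.95 and 38.97 (1.17). Among these, PAN3 acts in shortening poly(A) tails, cnn in centrosomes, Ufd1 in protein degradation and Xpc in nucleotide excision repair.

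**Figure D3:**
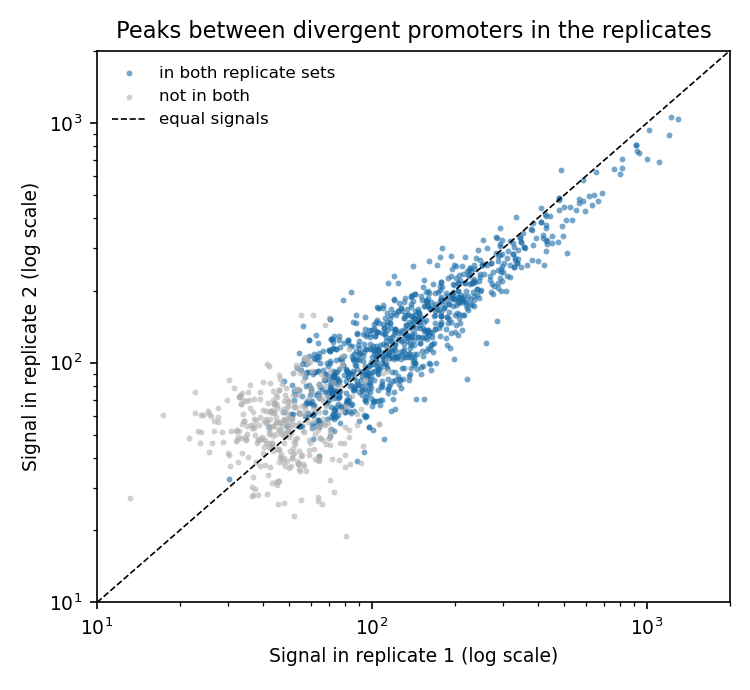
Signal in replicate 1 (x axis, log scale) against replicate 2 (y axis, log scale) for the 1276 peaks between divergent promoters with a ranked peak in both replicates. Blue points overlap both replicate sets (926 of the 1284 peaks) and grey points do not. Points lie along the dashed line of equal signals, and the strongest lie below it, higher in replicate 1.

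Genes of protein synthesis and turnover were counted against all genes in pairs. Over all pairs, 2440 of 5052 genes (48.3%) were in a pair with a peak, which is the background for the counts that follow. Of 53 cytoplasmic ribosomal protein genes in pairs, 34 (64.2%, interval 49.8 to 76.9) were in a pair with a peak. The strongest were RpL34b/CG8132 at 956, Ripalpha/RpL7 at 929 and RpS27/Nup37 at 847, while RpL26 and RpL35 were in pairs without. Of 59 mitochondrial ribosomal protein genes, 38 (64.4%, interval 50.9 to 76.4) were in such pairs, with mRpL15 and mRpL22 in pairs without. The counts were 16 of 26 for the proteasome (61.5%), led by Rpt2/CG13599 at 332 and Rpn6/ave at 326, 13 of 23 for aminoacyl-tRNA synthetases (56.5%), led by GluProRS/AP-1sigma at 593, and 19 of 31 for the signalosome and ubiquitin genes (61.3%), led by Uba2/Cds at 741, and the intervals of these 3 lists include the background. Translation factors had 12 of 29 (41.4%, interval 23.5 to 61.1, which includes the background), led by eIF3h/senju at 382.

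Genes of transcription, RNA processing and genome maintenance gave similar counts. Splicing and mRNA processing genes were in pairs in 41 of 47 cases (87.2%), where 36.2% of all protein-coding genes were, and 27 of these 41 (65.9%, interval 49.4 to 79.9) had a peak, such as U2af50/PIG-Q at 448. DNA repair had 27 of 38 (71.1%), with TH1/mei-41 at 599, a pair that holds the ATR checkpoint kinase gene mei-41. Cell cycle and replication had 28 of 44 (63.6%), with CG13933/PolD2 at 924. The RNA exosome and ribosome biogenesis list had 16 of 22 (72.7%), with CG7148/Nopp140 at 403, and its 16 include Rrp1 (Rrp1/gammaTub23C, 360), matched by its symbol, which encodes a DNA repair endonuclease. Nuclear pore genes had 12 of 21 (57.1%). RNA polymerase and general transcription genes stood at 20 of 40, with 140up/Polr2B at 735, and Mediator and Integrator at 17 of 29 (58.6%), with Wdr24/IntS11 at 620. Polycomb, trithorax and remodelling genes had 17 of 28 (60.7%), with brm/Arl1 and E(z)/Cnep1r2 (768), which holds the Polycomb methyltransferase gene E(z). The insulator and architectural list had 6 of 13 (46.2%, interval 19.2 to 74.9), among them Chro/Ssl1 and Cp190/CG4338 (836), so that the median signal over those 6 genes was 483. The intervals of the cell cycle, nuclear pore, RNA polymerase, Mediator, Polycomb and insulator lists include the background of 48.3%. Those of the splicing and DNA repair lists lie above it. That of the RNA exosome list starts at 49.8%, but its count includes Rrp1, so it is not read as above the background.

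Genes of organelles and membrane traffic made up further groups. Autophagy and endosomal sorting genes had 26 of 37 (70.3%, interval 53.0 to 84.1), with CHMP2B first, then Xe7/Atg17 at 603 and CG12093/Atg2 at 580, while Atg1 and Atg10 were in pairs without. Rab, Arf and Arl genes had 18 of 26 (69.2%), with the GTPase gene Arl1 first and then Rab3GAP1/CG14352 at 563, which was matched by its symbol and encodes a subunit of a GTPase-activating complex, and tethering and coat complexes had 21 of 32 (65.6%), with alphaCOP/CG13919 at 904. Peroxisome genes had 8 of 12 (66.7%) with a median signal of 317, among them Pex11ab, Pex10 (CG12099/Pex10, 652) and Pex6 (Taf5/Pex6, 490). The respiratory chain had 29 of 49 (59.2%), led by ND-ASHI/Fum1 at 483, the vacuolar ATPase 9 of 14 (64.3%), led by CG8187/Vha36-1 at 409, and mitochondrial import and assembly 8 of 14 (57.1%), led by Coq4/CG32176 at 802, where Coq4 acts in coenzyme Q synthesis. The intervals of most of these lists include the background of 48.3%.

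Hox and segmentation, cuticle and chemoreceptor genes were seldom in divergent pairs. None of 31 Hox and segmentation genes was in a qualifying pair, and 11 of 132 cuticle genes (8.33%) and 26 of 179 chemoreceptor genes (14.5%) were. A peak was present for 1 of those 11 cuticle genes (Lcp9/CG3594, 99.1), for 3 of the 26 chemoreceptor genes and for 1 of 7 glutathione S-transferase genes (GstO1/foi, 106; interval of the share 0.361 to 57.9%, which includes the background). The 3 chemoreceptor genes with a peak were Ir60e (Ir60e/CG13585, 221), Gr63a (Gr63a/Lamtor4, 115) and Ir75c (Ir75c/Grd, 67.1). In these pairs the summit was by the partner, 16 bp upstream of Lamtor4 and 281 bp from Gr63a, 19 bp upstream of CG13585 and 303 bp from Ir60e, and 50 bp upstream of CG3594 and 439 bp from Lcp9. Germline and piRNA genes were more often in pairs than the genes of these lists, with 13 of 26. A peak was present for 8 of the 13 (61.5%, interval 31.6 to 86.1, which includes the background), such as CG13185/cuff at 369 and piwi/CG12253 at 290. CG3847 itself is not in a qualifying pair.

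Both genes of a pair were on a list in 73 pairs, of which 44 (60.3%, interval 48.1 to 71.5) had a peak, against 354 of 622 (56.9%) with 1 listed gene and 878 of 1972 (44.5%, 42.3 to 46.7) with none. The strongest pairs of listed genes were brm/Arl1, RpS27/Nup37, GluProRS/AP-1sigma, Taf5/Pex6, MED30/Rev1 (479), MED7/Cap-H2 (427), RpL28/eIF1 (369) and Csl4/Nup160 (346). RpL28/eIF1 joins a ribosomal protein gene to a translation initiation factor gene, and MED7/Cap-H2 a Mediator subunit gene to a condensin II subunit gene. The signal of such a pair cannot be assigned to either gene, since the summit is in reach of both by definition.

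The promoter elements of broadly used genes were found in a part of the windows. A DRE lay within the 200 bp around 175 of 1284 summits (13.6%, interval 11.8 to 15.6), against 8.97% at single-gene promoter peaks and 0.637% away from protein-coding starts. The Motif 1 core was in 144 windows (11.2%), against 9.88% and 0.675%, and the Motif 7 core in 137 (10.7%), against 6.37% and 1.39%. The median spacing of the starts at these peaks was 267 bp, so a 200 bp window can take in parts of both promoters. The part of this in the shares was not tested. Matches counted on both strands, and over windows of equal length the shares at all annotated protein-coding starts were 6.15%, 3.31% and 3.24% in the order DRE, Motif 1, Motif 7. At least 1 of these 3 was in 406 windows (31.6%), so 878 windows held none. CGATA, which lies inside the DRE, was in 52.3% of the windows, against 36.5% at all starts. GAGAG was in 14.6%, against 23.2% at single-gene promoter peaks and 25.2% at all starts, and TATAAA in 35.0%, against 26.7% and 33.5%. At midpoints of head-to-head pairs without a peak these words were in 14.9% and 39.4% of windows, so neither share is particular to pairs with a peak.

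**Figure D4:**
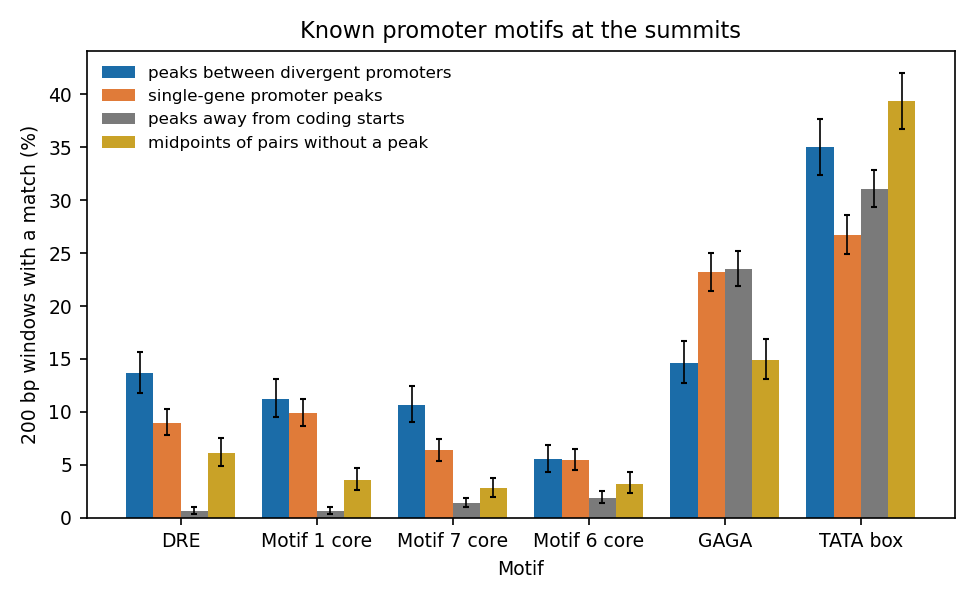
Share of 200 bp windows with a match to 6 promoter motifs (y axis, %) at summits between divergent promoters (blue), at single-gene promoter summits (orange), at summits away from protein-coding starts (grey) and at midpoints of head-to-head pairs without a peak (yellow), with 95% exact binomial intervals. For the DRE, Motif 1 and Motif 7 cores the blue bars (13.6%, 11.2% and 10.7%) are above the grey (0.637%, 0.675% and 1.39%).

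Pairs with and without a peak were compared over the same stretch, from 100 bp inside the one gene to 100 bp inside the other, because midpoints of wide pairs lie far from both starts. A Motif 7 core was in 21.0% of 1276 pairs with a peak (interval 18.8 to 23.3) and in 11.7% of 1391 pairs without (10.1 to 13.5). A Motif 1 core was in 23.2% of pairs with a peak and 15.6% of pairs without, and a DRE in 24.6% and 19.5%, although the pairs without a peak span more DNA (median spacing 404 bp, against 260 bp for pairs with a peak). At pairs with starts up to 150 bp apart the DRE was in 20.9% with a peak and 20.1% without, with intervals that overlap nearly fully, while the Motif 7 core was in 16.5% and 6.72%. At 151 to 350 bp the DRE was in 23.8% and 16.9% and the Motif 7 core in 21.8% and 9.74%.

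Motif 1 and Motif 7 are read on a strand, and their matches mostly stood on the strand of the nearer gene. Taking for each peak its nearest pair (1187 pairs), 267 of 297 Motif 7 cores (89.9%, interval 85.9 to 93.1) were on the strand of the gene whose start was nearer, at a median of 0.5 bp inside that gene, and 244 of 313 Motif 1 cores (78.0%, 72.9 to 82.4) were, at a median of 6.5 bp inside. In pairs without a peak these were 78.4% (71.4 to 84.3) of 171 Motif 7 cores and 81.0% (75.4 to 85.9) of 232 Motif 1 cores. So this orientation was seen at pairs without a peak too. Both genes had their own such match in 24 pairs for Motif 7 and in 20 pairs for Motif 1. Matches lay a median of 43 bp from the summit for the DRE and for Motif 1, and 57 bp for Motif 7. They were sought only in the 200 bp windows around the summit, which bounds these distances. Medians were 55.5 bp for GAGAG and 48 bp for the initiator, so no closeness to the summit can be read from them.

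The strongest peaks held the DRE and the Motif 1 core least often. The DRE was in 6.61% of windows in quintile 5 and in 14.0 to 16.4% in quintiles 1 to 4, and the Motif 1 core in 3.89% of quintile 5 and 14.8% of quintile 1. The Motif 7 core varied less, with 9.34% in quintile 5 and 7.39% in quintile 1. Any of the 3 was in 19.5% of quintile 5, against 32.7 to 38.9% in the other quintiles. At single-gene promoters, in quintiles of their own, both ends were low. There the DRE was in 6.82% of quintile 5, 6.59% of quintile 1 and 9.11 to 11.2% of the quintiles between. The Motif 1 core was in 5.23%, 5.91% and 11.8 to 14.1% in that order. The word CTACGCC, chosen after the strongest sequences were seen, was in 13 windows of quintile 5 (5.06%) and in 9 windows of the other 1027 peaks, and its median signal was 464, against 177 without it. These counts include the peaks on which the word was chosen, so they are no separate check of it. It was in 1.71% of all windows here and in 1.64% at single-gene promoter peaks. In the latter it was in 3.86% of quintile 5 and in 0.456 to 2.05% of the other quintiles. The word AACCCC was in 2.80% of all windows here and in 4.67% of quintile 5. It was more frequent at single-gene promoter peaks (4.32%), away from protein-coding starts (5.25%), at midpoints of pairs without a peak (4.83%) and at all starts (4.64%). The GC content of the windows was lower in stronger peaks, with a median of 34% in quintile 5 and 37.5% in quintile 1, and at single-gene promoters 37.0% and 43.5%. The part of GC content and of the summit's position in these motif counts was not tested.

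**Figure D5:**
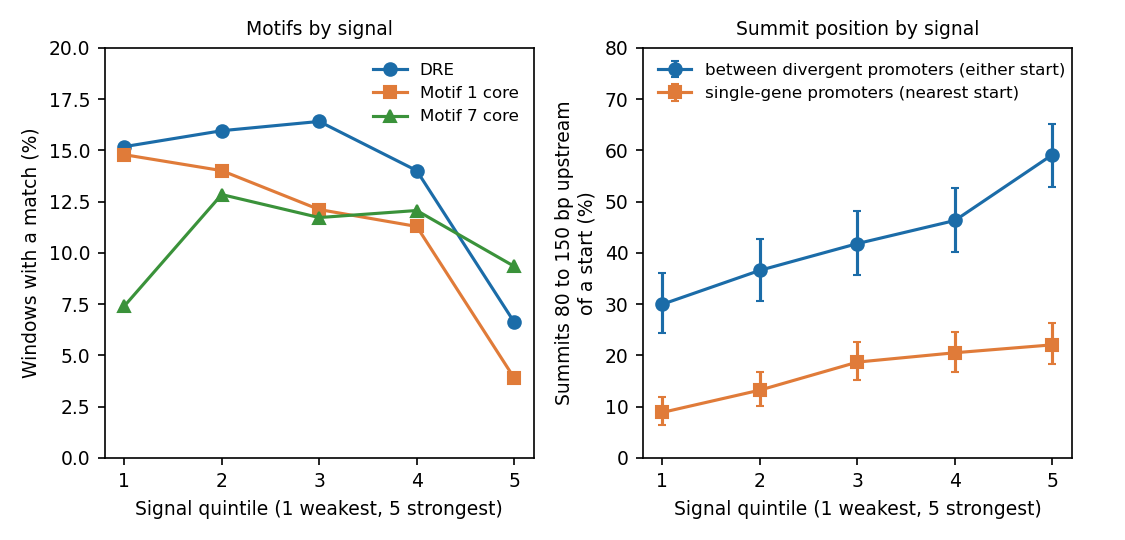
Left, share of 200 bp windows with a DRE, Motif 1 core or Motif 7 core (y axis, %) by signal quintile of the 1284 peaks (x axis, 1 weakest, 5 strongest). Right, share of summits with a start 80 to 150 bp downstream (y axis, %) for peaks between divergent promoters (either start) and for single-gene promoter peaks (nearest start) in their own quintiles, with 95% exact binomial intervals. The blue share is 29.96% in quintile 1 and 59.1% in quintile 5.

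Searching all 8-base words gave words of the DRE and of Motif 1, and none of Motif 7 among the first 5. The 5 words with the largest excess over midpoints of pairs without a peak were taken from the arms 2L and 3L with chromosomes X and 4, and counted again on the arms 2R and 3R. There GGTCACAC was in 10.4% of windows, against 3.95% at midpoints without a peak, ATCGATAG in 12.3% against 5.43%, AGTGTGAC in 8.29% against 3.45%, TATCGATA in 14.0% against 6.41% and CAGTGTGA in 5.70% against 2.63%. ATCGATAG overlaps the DRE, and AGTGTGAC and CAGTGTGA overlap Motif 1 on the other strand. The midpoints of wide pairs lie farther from a start than the summits do, which enters these differences.

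Peaks just inside and just outside the 500 bp reach had similar signals. The 57 peaks whose farther start was 450 to 500 bp away had a median signal of 129, and the 55 peaks just outside, at up to 550 bp, had 119. By spacing, 1 peak (18.8) lay at pairs 900 to 1000 bp apart and 1 (137) at pairs 1001 to 1100 bp apart, too few to compare. A summit was in reach of more than 1 gene pair in 67 peaks (5.22%), with up to 21 pairs for 1 peak, and each such pair counts as a pair with a peak. More than 1 peak was held by 107 pairs (8.39%). The weaker one can be a secondary peak that overlaps the stronger, as at Hel25E/Lam (195 and 3.78), so these pairs need not hold separate sites. A non-coding start was within reach as well in 20 peaks (1.56%).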

How the data were processed

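The authors deposited peak sets and ranked peak tables on dm6 made with the irreproducible discovery rate (IDR), per the file descriptions. The sources used here name no aligner and no peak caller. Signal is the peak signal value that the authors deposited for each peak, on a scale that is not stated, and was used to rank and describe peaks. For each ranked peak the authors deposited the −log10 of its global IDR, and the threshold was 2. Of the optimal set, the peaks outside the 7 main arms were left out. A peak's replicate value is the signal of the highest ranked peak that overlaps it by at least 1 bp in that replicate's table. Read counts are not given, so depth is unknown.

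Genes were taken from Ensembl release 115 (BDGP6.54) without transposable elements, using every transcript's TSS, and sequence from the RefSeq Release 6 genome. A peak in reach of several pairs took the pair with the smallest larger distance. Shares have 95% exact (Clopper-Pearson) intervals from SciPy 1.17.1, run with Python 3.11.15, numpy 2.4.6, pandas 2.3.3 and matplotlib 3.10.9. The scripts were tested on simulated peaks. Motif windows were 200 bp around the summit, around the midpoint of the 1367 pairs with neither an optimal peak nor another ranked peak past the threshold, or around each start. Members, gene lists and motifs were chosen with earlier results of these data known. Lists were filled by gene symbol patterns, so a few of their genes have other roles. The text names the genes of the 20 strongest members found in the conservative and both replicate sets, up to 3 genes per list in pairs with a peak and 2 in pairs without, the 8 strongest pairs of listed genes, CG3847, the weakest, widest and narrowest members and those with the largest replicate ratios, and the sequences under the limits given there. Names from this rule were thinned in the text. No p-value was computed, since 1 group allows no comparison between conditions. Alternatives were the conservative set, the stronger 50% of peaks, 1 TSS per gene, a reach of 250 bp, a spacing of 500 bp, each replicate left out, merged peaks, a 50% overlap and a 100 bp motif window.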

Additional observations from a re-analysis of the deposited data

Results flagged for a closer look

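In the pooled ranked table, 171 peaks past the reproducibility threshold were not in the optimal set, and 22 of them had their summit in reach of both starts of a divergent protein-coding pair. Their signals ran from 66.2 to 1428, and 16 of the 22 lay on 3R. They were singled out because they are signal in a table that the counts above do not use, and they were not added to the 1284 peaks.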

How the results depend on the processing

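Of 45 alternative values for 7 results, 30 stayed within the interval of the reported value or, for the number of peaks, within 1.5 times, and 15 did not. With the stronger 50% of the optimal peaks, 34.2% of pairs held a peak, the median signal was 244, the summit lay between the starts in 81.4%, both replicate sets were overlapped by 93.0%, and the Motif 1 core was in 9.02% of windows. With a reach of 250 bp the peaks numbered 794, 32.2% of pairs held a peak and the median signal was 214. With spacings up to 500 bp 59.0% of pairs held a peak. Leaving out a replicate gave 42.7% of pairs without replicate 1 and 38.2% without replicate 2, and 1145 and 1003 peaks. Merging overlapping peaks raised the median signal to 191, which follows from dropping the weaker of each overlap. Asking for an overlap of 50% of both peaks left 54.8% in both replicate sets. A 100 bp motif window held the DRE in 7.32% and the Motif 1 core in 5.997%, being shorter. The cause of the other shifts was not tested. The conservative set and 1 TSS per gene moved none of the 7 results that far.

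No paired analysis was possible because the series has 1 group. Control libraries and read counts were not used here, annotated starts set every distance, and the scale of the signal is not given. Neighbouring peaks and pairs that share a gene are not independent, and intervals cover counting only.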
